A study of Bos taurus with 38 samples.

Results

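EPHB2 and EFNA1 are 2 genes of the Eph and ephrin family, out of 27607 gene identifiers that were counted in cattle oocytes and in the cumulus cells around them. EPHB2 was followed as the receptor in cumulus cells and EFNA1 as the ligand in oocytes. Both were chosen by the difference in their transcript abundance between BCB classes in those compartments. Those BCB differences are therefore given as values with no test. The dye brilliant cresyl blue (BCB) stays visible in oocytes with low activity of glucose-6-phosphate dehydrogenase, which marks the end of growth (BCB positive), and fades in growing oocytes (BCB negative). Cattle cumulus-oocyte complexes were taken from follicles of abattoir ovaries, stained, and separated into a single oocyte and its cumulus cells, with no other treatment in either class. There were 9 BCB positive and 10 BCB negative complexes, and the oocyte and the cumulus cells of each were sequenced, which gave 38 libraries. The labels do not say which complexes came from the same animal, so p-values measure the spread between these complexes.

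Eph proteins are receptor tyrosine kinases of the cell surface, and ephrins are their membrane-bound ligands, so that both signal where cells touch. Ephrins A are held by a lipid anchor and bind mainly EphA receptors, while ephrins B cross the membrane and bind mainly EphB receptors. Signals run forward into the cell with the receptor and in reverse into the cell with the ephrin, and they act on adhesion, cell shape and the cytoskeleton. EphB2, the product of EPHB2, is mainly a receptor for ephrins B, and ephrin-A1, the product of EFNA1, is mainly a ligand of EphA receptors such as EphA2, so that they are not each other's main partners. Cumulus cells are granulosa cells that touch the oocyte through projections across the zona pellucida and are coupled to it by gap junctions.

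The identifier was known for 7 of the 22 Eph and ephrin genes looked for, namely EFNA1, EFNB2, EPHA2, EPHA7, EPHB2, EPHB4 and EPHB6. The names came from tables ranked by the study's own test between BCB classes. EPHB2, EPHB4 and EPHB6 were named through the cumulus table and the other 4 through the oocyte table, so counts of these genes are not shares of the family. EPHB2 is ENSBTAG00000045902 and EFNA1 is ENSBTAG00000020244. In the RefSeq gene order of a later assembly, EFNA1 lies beside EFNA3 and EFNA4, which encode further ephrins A, and EPHB2 lies beside C1QB, a complement gene.

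Library totals ran from 1103200 to 10430148 counts in cumulus cells and from 8886070 to 29810354 in oocytes. Levels are given below as CPM, counts of a gene per 1000000 counts of its library. Oocyte libraries held the egg coat genes ZP2 and ZP3 at 1261 to 2607 CPM, and cumulus libraries held FSHR, the receptor of follicle-stimulating hormone, at 93.4 to 515 CPM. The summed CPM of 3 oocyte markers (ZP2, ZP3 and DAZL) reached 66.5 in the cumulus library of complex 66 and 49.9 in that of complex 68, against 0.108 to 7.87 in the others. The summed CPM of 10 cumulus and granulosa markers was 2400 in the oocyte library of complex 72, against 65.1 to 552 in the other oocyte libraries. No pair of libraries held identical counts. The numbers of the complexes fall into 3 runs, which the labels do not explain. The run from 6 to 24 held 3 BCB positive and 1 BCB negative complexes, the run from 65 to 74 held 6 and 3, and the run from 86 to 91 held 6 BCB negative complexes.

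EPHB2 transcript abundance in cumulus cells was lower in BCB positive than in BCB negative complexes. In the 9 BCB positive complexes it ran from 0.969 CPM (complex 72) to 4.46 CPM (complex 17), with a median of 1.89 CPM. In the 10 BCB negative complexes it ran from 3.11 CPM (complex 87) to 34.4 CPM (complex 6), with a median of 10.0 CPM. The classes overlapped: 8 of 10 BCB negative libraries lay above every BCB positive one, and complexes 87 and 90 did not. The mean was 2.14 ± 1.13 CPM (SD, n = 9) in BCB positive and 12.9 ± 9.96 CPM (SD, n = 10) in BCB negative complexes. The fitted log2 difference, BCB positive minus BCB negative, was -3.14 (SE 0.46), an 8.79-fold lower level after TMM normalization. Of 12313 genes tested in cumulus cells, 69 were called at an FDR of 0.01 (0.56%), 64 of them lower in BCB positive complexes (0.52%) and 5 higher (0.0406%). Nothing is read from this for EPHB2, which was chosen by the same difference. This background was not steady: leaving out 1 complex gave 6 (complex 24) to 160 (complex 89) called genes, and a likelihood-ratio test without TMM gave 2366 higher and 150 lower, with EPHB2 at -2.60.

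These levels rest on few reads. The counts of EPHB2 behind them were 5 to 20 in BCB positive and 12 to 196 in BCB negative cumulus libraries. With 5 counts, complex 19 had 1.32 CPM with an exact 95% Poisson interval of 0.430 to 3.09 CPM. With 196 counts, complex 89 had 24.5 CPM and an interval of 21.2 to 28.1 CPM. Such intervals cover counting error only.

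**Figure D1:**
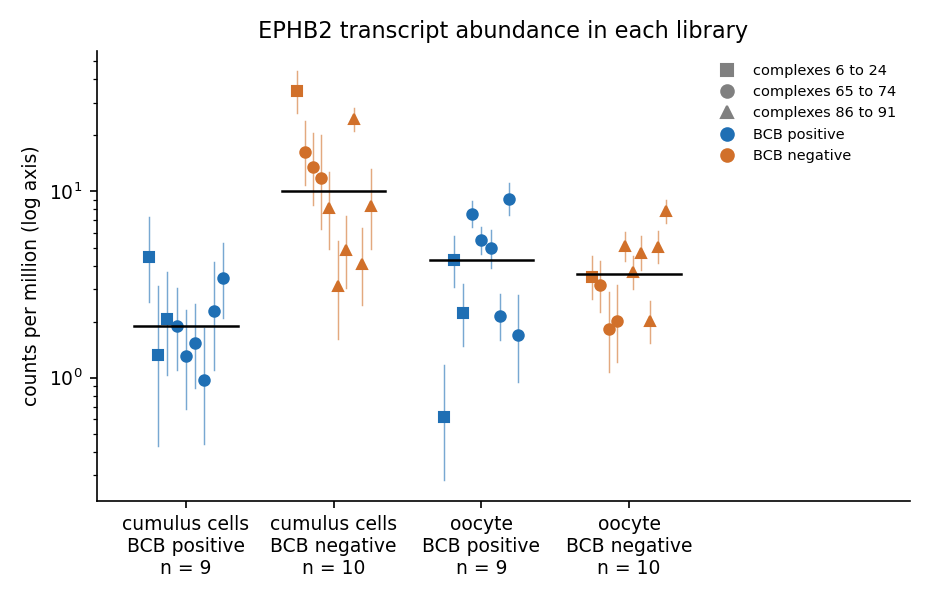
EPHB2 in each library, in CPM on a log axis, by compartment and BCB class. Points are libraries, with shapes for the runs of complex numbers, thin lines their exact 95% Poisson intervals and black bars the medians, which lie at 1.89 and 10.0 CPM in cumulus cells and at 4.27 and 3.59 CPM in oocytes.

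The difference is described here within the runs of complex numbers that hold both classes. These values come from the libraries by which EPHB2 was chosen, so they are no separate evidence for the difference. In the run from 65 to 74, the 3 BCB negative complexes had 16.4 CPM (complex 65), 13.5 CPM (complex 66) and 11.8 CPM (complex 68), and the 6 BCB positive ones had 0.969 to 3.42 CPM with a median of 1.71 CPM. The classes did not overlap in this run, and the fitted log2 difference was -3.71. In the run from 6 to 24, BCB negative complex 6 had 34.4 CPM, and the 3 BCB positive complexes had 4.46 CPM (complex 17), 1.32 CPM (complex 19) and 2.07 CPM (complex 24). With the run as a covariate the log2 difference was -3.88.

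BCB negative complexes did not share 1 level of EPHB2. In the run from 86 to 91, complex 89 stood at 24.5 CPM, and the other 5 complexes at 3.11 to 8.32 CPM. On the log2(CPM + 1) scale after TMM normalization the mean of this run was 3.09 ± 0.92 (SD, n = 6), against 4.37 ± 0.33 (SD, n = 3) in complexes 65 to 68. The difference of -1.29 had a two-sided exact permutation p of 0.0476, where 84 splits allow no less than 0.0119, and an adjusted p of 0.190 over 4 comparisons of runs. In BCB positive cumulus cells complexes 69 to 74 differed from complexes 17 to 24 by -0.30 (exact permutation p = 0.440, adjusted 0.587).

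Other measures of the cumulus libraries also differed in range between the classes. Total counts were 3585944 to 10430148 in BCB positive and 1103200 to 8013318 in BCB negative libraries, and the share of counts on 13 mitochondrial genes was 0.966 to 2.86% and 1.17 to 17.4%. In the same order, the summed oocyte markers were at 0.108 to 1.82 and 0.661 to 66.5 CPM. The summed cumulus and granulosa markers were at 8815 to 24910 and 4109 to 12303 CPM. Complex 89, with the second highest EPHB2, had the largest total and the lowest mitochondrial share of the BCB negative libraries. Within the classes EPHB2 against the log2 mitochondrial share gave r = 0.234 in BCB negative (permutation p = 0.517) and r = 0.240 in BCB positive complexes (exact permutation p = 0.537). With the log10 total as a covariate the log2 difference of EPHB2 was -2.52. Complexes 6 and 89, which had the highest EPHB2, also had the lowest INHA, the inhibin alpha subunit made by granulosa cells, at 272 and 902 CPM against 1749 to 7308 CPM in the other libraries. CYP19A1, the aromatase that makes oestradiol, was lowest in the same pair of libraries, at 5.08 and 12.5 CPM against 30.9 to 367 CPM. Both were picked out of 10 cumulus and granulosa markers after their values were seen. Of the 10 markers, 8 in complex 6 and 5 in complex 89 were among the 2 lowest of the 19 libraries, while FSHR was lowest in complex 68. KRT18, a keratin on the same list, went the other way and was highest in complex 89, at 183 CPM against a median of 4.74 CPM over the 19 libraries. Its log2 difference between BCB classes was -3.78 (SE 0.80), in the direction of EPHB2, and within complexes 65 to 74 it was -0.18. KRT18 was named through the study's cumulus table for this BCB contrast, so these values are given with no test. Over the BCB negative complexes EPHB2 against the summed markers gave r = -0.320 (permutation p = 0.367) and rho = -0.030 (permutation p = 0.947). Without both complexes the log2 difference of EPHB2 was -2.64. Without complexes 66 and 68 it was -3.09, and without complexes 65, 66 and 68, the BCB negative ones of their run, it was -2.99. Since cumulus cells were not counted, fewer cells of a type and less RNA per cell cannot be told apart. The part of depth, mitochondrial share and cell makeup in the difference was not tested.

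**Figure D2:**
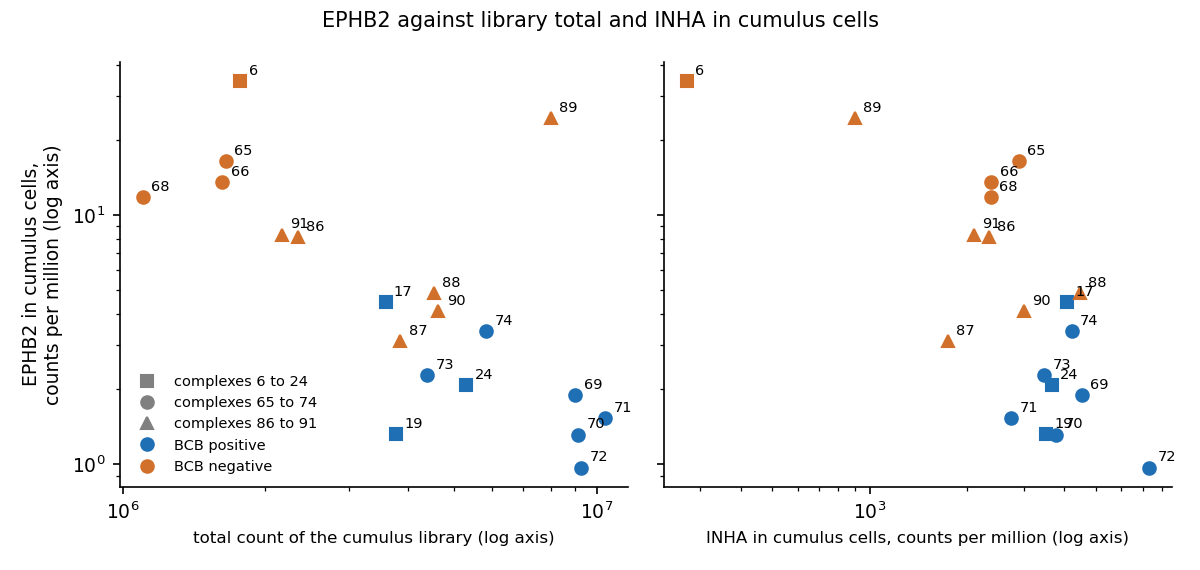
EPHB2 in cumulus cells, in CPM on a log axis, against the total count of the library (left) and against INHA in CPM (right), both on log axes. Points are complexes, numbered, coloured by BCB class and shaped by run. Complexes 6 and 89 sit at the lowest INHA and the highest EPHB2, and complexes 87 and 90 have EPHB2 levels within the range of the BCB positive complexes.

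In oocytes EPHB2 was detected in all 19 libraries and did not differ between BCB classes beyond its spread. It ran from 0.616 CPM (complex 17) to 9.14 CPM (complex 73) in BCB positive oocytes, with a median of 4.27 CPM. In BCB negative oocytes it ran from 1.82 CPM (complex 66) to 7.85 CPM (complex 91), with a median of 3.59 CPM. The classes overlapped over most of their range. The log2 difference was 0.13 (SE 0.37, edgeR FDR 0.978), and within complexes 65 to 74 it was 1.10 (edgeR FDR 0.260). In oocytes 0 of 12753 genes were called (0%) with edgeR, 711 had an unadjusted p under 0.05, and DESeq2 called 1. The BCB difference of EPHB2 in cumulus cells minus that in oocytes was -3.28 (SE 0.61). With complexes as blocks it was -2.94. Since this value contains the cumulus difference by which EPHB2 was chosen, it is a description with no test. Over all genes 2 were called with blocks, and without them 54 of 10281 genes were called (0.525%), 2 toward higher (0.0195%) and 52 toward lower values in cumulus cells (0.506%), and with library totals alone 532 and 46 were.

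Summed over classes, EPHB2 was not called between compartments. The log2 difference, oocyte minus cumulus cells, was -0.78 (SE 0.30, edgeR FDR 0.0153), and -0.74 with complexes as blocks (edgeR FDR 0.0708). Within complexes the direction went with the BCB class: EPHB2 CPM was higher in the oocyte in 7 of 9 BCB positive complexes and higher in the cumulus cells in 8 of 10 BCB negative ones. That split uses the cumulus difference by which EPHB2 was chosen and is given as a description. By median, the order of levels was BCB negative cumulus cells, BCB positive oocytes, BCB negative oocytes and BCB positive cumulus cells, and the ranges of neighbours in this order overlapped.

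EFNA1 transcript abundance in oocytes was lower in BCB positive than in BCB negative complexes. In the 9 BCB positive oocytes it ran from 1.09 CPM (complex 17) to 3.05 CPM (complex 19), with a median of 1.69 CPM. In the 10 BCB negative oocytes it ran from 2.02 CPM (complex 66) to 5.67 CPM (complex 90), with a median of 3.38 CPM. Of the BCB negative oocytes 5 of 10 lay above every BCB positive one, and the rest overlapped with them. The means were 1.94 ± 0.683 CPM (SD, n = 9) and 3.77 ± 1.53 CPM (SD, n = 10), from 15 to 65 and from 20 to 142 counts. The fitted log2 difference was -0.96 (SE 0.26), a 1.94-fold lower level, in a compartment where edgeR called no gene and DESeq2 called 1.

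The difference was smaller within the run from 65 to 74, and whether it differed between runs was not tested. The 5 BCB negative oocytes above every BCB positive one were complexes 6, 87, 88, 90 and 91, at 3.89 to 5.67 CPM, and none of them came from the run from 65 to 74. In that run BCB negative oocytes had 2.38 CPM (complex 65), 2.02 CPM (complex 66) and 2.77 CPM (complex 68), inside the range of 1.37 to 2.87 CPM of the 6 BCB positive oocytes. The log2 difference within that run was -0.36 (SE 0.33), and -0.70 with the run as a covariate. Among BCB negative oocytes, EFNA1 was higher by 0.51 on the log2(CPM + 1) scale in complexes 86 to 91 than in complexes 65 to 68, with an exact permutation p of 0.131 (adjusted 0.262 over 4 comparisons). BCB positive oocytes of complexes 69 to 74 and 17 to 24 differed by -0.03 (exact permutation p = 0.905, adjusted 0.905). The run from 86 to 91 holds no BCB positive complex, so run and BCB class cannot be told apart there.

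**Figure D3:**
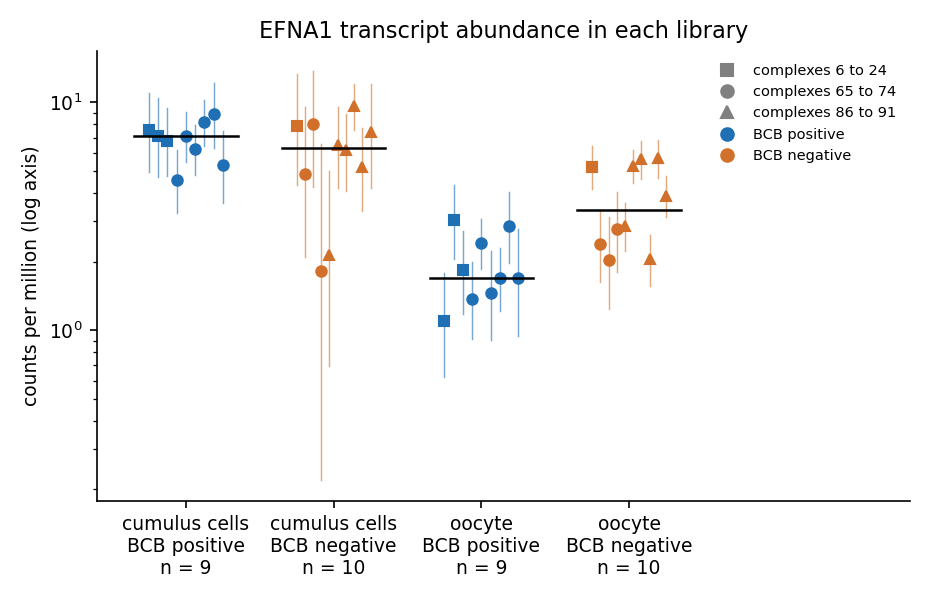
EFNA1 in each library, in CPM on a log axis, by compartment and BCB class, with the same symbols, intervals and bars as for EPHB2. The medians lie at 7.12 and 6.33 CPM in cumulus cells and at 1.69 and 3.38 CPM in oocytes.

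EFNA1 was not a transcript of oocytes alone. In cumulus cells it ran from 4.55 CPM (complex 69) to 8.89 CPM (complex 73) in BCB positive complexes, with a median of 7.12 CPM. In BCB negative complexes it ran from 1.81 CPM (complex 68, 2 counts) to 9.61 CPM (complex 89, 77 counts), with a median of 6.33 CPM. The classes overlapped, and the log2 difference of -0.28 (SE 0.24) was not called (edgeR FDR 0.570). EFNA1 was lower in oocytes than in cumulus cells, with a log2 difference of -1.65 (SE 0.18, edgeR FDR 3.9e-11), a 3.15-fold lower level. With complexes as blocks it was -1.67 (edgeR FDR 1.76e-08). EFNA1 CPM was lower in the oocyte than in its own cumulus cells in 9 of 9 BCB positive and 7 of 10 BCB negative complexes. Of 14785 genes tested between compartments 13127 were called (88.8%), 6872 higher in oocytes (46.5%) and 6255 lower (42.3%), so that a call by itself sets no gene apart. The order of medians was BCB positive cumulus cells, BCB negative cumulus cells, BCB negative oocytes and BCB positive oocytes, and each range overlapped with the next.

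Complex by complex, EPHB2 in cumulus cells and EFNA1 in the oocyte inside them were compared within each BCB class, since the BCB difference of both genes was fixed by their choice. In the 10 BCB negative complexes Pearson's r of log2(CPM + 1) was -0.503 (permutation p = 0.136, adjusted 0.273 over both classes) and Spearman's rho was -0.442 (permutation p = 0.205, adjusted 0.409). In the 9 BCB positive complexes r was -0.387 (exact permutation p = 0.305, adjusted 0.305) and rho was -0.283 (exact permutation p = 0.463, adjusted 0.463). No relation passed the threshold of 0.05 in either class. With the inverse hyperbolic sine of counts divided by the TMM factor, r in BCB negative complexes was -0.160 (permutation p = 0.688).

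Both coefficients turned on single complexes. Complex 6, the single BCB negative complex of its run, was high for both genes, with EPHB2 at 34.4 CPM and EFNA1 at 5.20 CPM, and without it r in BCB negative complexes was -0.907. Leaving out any other BCB negative complex gave r from -0.529 to -0.401. In BCB positive complexes r was -0.044 without complex 17 and -0.540 to -0.286 without any other. Without the 2 complexes farthest from the class median of EPHB2, r was -0.892 in BCB negative and 0.135 in BCB positive complexes, so that the relation in the latter rested on those complexes. In the 6 BCB negative complexes from 86 to 91, r was -0.946 (exact permutation p = 0.0153) and rho was -0.771 (exact permutation p = 0.103), and leaving out 1 of them gave r from -0.975 to -0.879. In the 6 BCB positive complexes of the run from 65 to 74, r was 0.176 (exact permutation p = 0.732) and rho was 0.200 (exact permutation p = 0.714). These values within runs were not adjusted. Complexes 87, 88 and 90 had low EPHB2 (3.11 to 4.85 CPM) with high EFNA1 (5.25 to 5.67 CPM), and complex 89 had the reverse (24.5 and 2.05 CPM).

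**Figure D4:**
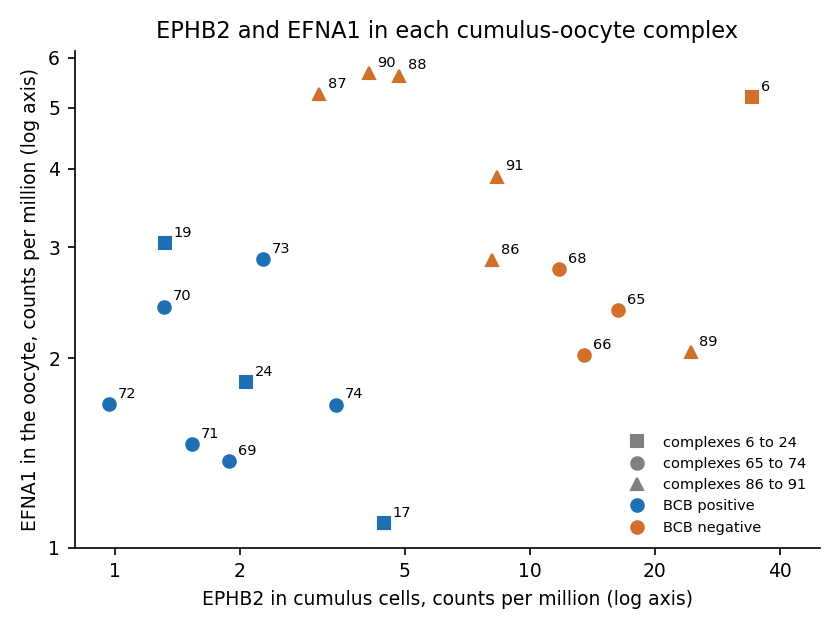
EPHB2 in cumulus cells (x axis) against EFNA1 in the oocyte of the same complex (y axis), both in CPM on log axes, with points numbered by complex, coloured by BCB class and shaped by run. BCB negative complexes 87, 88 and 90 lie at high EFNA1 and low EPHB2, complex 89 at the opposite end, and complex 6 is high for both.

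A further 28 relations within BCB classes set both genes beside library measures. They covered the same gene in the other compartment, the log10 total of the library, the summed markers of the other compartment and, in cumulus cells, the summed granulosa markers and the mitochondrial share. None passed after adjustment over the 28, and the lowest adjusted p was 0.658 for r and 0.482 for rho. The lowest unadjusted p belonged to EFNA1 in BCB positive cumulus cells, which rose with the mitochondrial share (r = 0.700, exact permutation p = 0.0384, and rho = 0.783, exact permutation p = 0.0172), and r was 0.605 without the 2 farthest complexes. EPHB2 in cumulus cells against the log10 total gave r = -0.504 in BCB negative (permutation p = 0.136) and r = -0.608 in BCB positive complexes (exact permutation p = 0.0811). With 9 or 10 complexes a weak relation would not have been seen.

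The other named Eph receptor genes passed the filter on low counts in both compartments. EFNB2, the only other ephrin gene with an identifier, passed it in oocytes alone. Transcripts of EPHA2, the main receptor of ephrin-A1, were higher in oocytes, at 42.8 to 125 CPM against 5.97 to 49.3 CPM in cumulus cells, and higher in the oocyte in 19 of 19 complexes. The log2 difference, oocyte minus cumulus cells, was 1.35 (SE 0.17, edgeR FDR 1.67e-09). EFNB2, which encodes ephrin-B2, a ligand of EphB receptors, was at 2.85 to 9.54 CPM in oocytes and 0 to 2.25 CPM in cumulus cells. Its log2 difference was 2.28 (SE 0.26). EFNB2 entered this comparison only through the oocyte libraries, where it is high, so the difference is given with no test. EPHA7, another EphA receptor, was also higher in oocytes, by 1.85 (SE 0.28, edgeR FDR 7.36e-08).

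EPHB4, the receptor to which ephrin-B2 binds most, went the other way, with 3.46 to 14.7 CPM in oocytes and 3.63 to 34.8 CPM in cumulus cells and a log2 difference of -1.76 (SE 0.16, edgeR FDR 2.42e-13). EPHB6, whose kinase domain is inactive, differed by -2.61 (SE 0.48, edgeR FDR 4.82e-06). Of the 7 named genes 6 were called between compartments, 3 in each direction, with EPHB2 as the exception, where 88.8% of all genes were called. Those higher in oocytes include EFNB2, which passed the filter only there, so that its call was favoured by the filter. The median log2 difference was -0.78 over the 7 genes and 0.15 over all genes tested.

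Between BCB classes, no named Eph or ephrin gene was called in the compartment that did not name it. Over all genes edgeR called 0.56% in cumulus cells and 0% in oocytes, so the lack of calls does not set these few genes apart. In cumulus cells EPHA2 differed by 0.06 (SE 0.29, edgeR FDR 0.939) and EPHA7 by -0.65 (SE 0.46, edgeR FDR 0.468), and EFNB2 did not pass the filter on low counts. In oocytes EPHB4 differed by -0.33 (SE 0.23, edgeR FDR 0.904) and EPHB6 by 0.28 (SE 0.38, edgeR FDR 0.948). In the comparison that named them, EPHB4 differed by 0.46 (SE 0.18) and EPHB6 by 2.93 (SE 0.82) in cumulus cells, toward higher levels in BCB positive complexes and so opposite to EPHB2. EPHB6 varied widely, from 4.10 CPM (complex 74) to 156 CPM (complex 24) in BCB positive and from 0 to 23.9 CPM (complex 86) in BCB negative cumulus cells, with 0 counts in complexes 65, 66 and 91. The median log2 difference over the 6 named genes tested in cumulus cells was -0.11, and -0.01 over all genes. In oocytes EPHA2, EPHA7 and EFNB2 differed by -0.23, 0.56 and -0.40 (SE 0.14, 0.30 and 0.22).

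**Figure D5:**
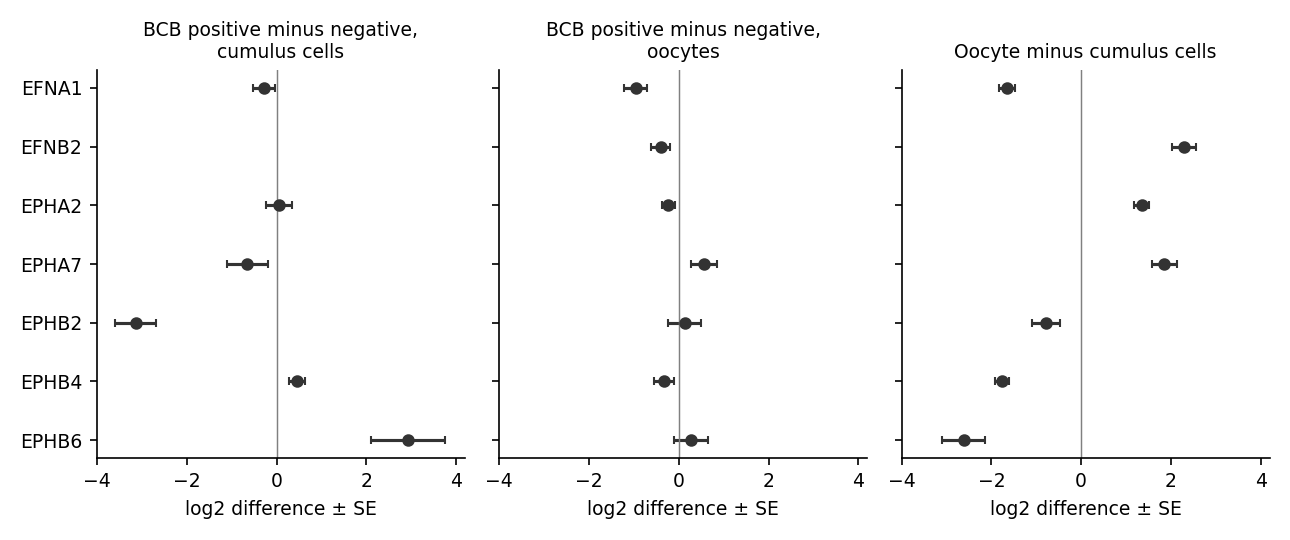
Log2 differences of the 7 named Eph and ephrin genes, with points for the fitted value and bars for its standard error, between BCB classes in cumulus cells (left) and oocytes (middle) and between compartments (right). EPHB2 lies at -3.14 in cumulus cells and at 0.13 in oocytes, EFNA1 at -0.28 and -0.96, and EFNB2 is missing on the left because it did not pass the filter.

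Of 47 genes for signalling, cleavage and contacts downstream of Eph and ephrins, 18 had a known identifier, and 0 of the 18 were called by edgeR between BCB classes in cumulus cells or in oocytes, beside 0.56% and 0% of all genes. At an unadjusted p under 0.05 there were 5 in cumulus cells (27.8%, beside 18.7% of all genes tested) and 1 in oocytes (5.56%, beside 5.58%). These shares are no comparison with all genes, since 4 of the 5 and the 1 were named through the study's table for the same BCB contrast. KALRN, a guanine exchange factor that EphB receptors act on, was named after its values were seen and lay nearest to the threshold, at -1.67 in cumulus cells (SE 0.36, edgeR FDR 0.0136). It was called in cumulus cells by DESeq2 (FDR 7.65e-05) and by edgeR with the run as a covariate (FDR 0.00189). With the log10 total as a covariate it was at -0.36 (edgeR FDR 0.684). KALRN is 1 of the 4 genes named through the table for this contrast, so these FDRs are descriptions and no evidence of a difference. A likelihood-ratio test in edgeR without TMM put the median log2 difference of all genes at 0.46, against -0.01 in the main fit. It called 7 of the 18 in cumulus cells, 6 higher and 1 lower in BCB positive complexes. Of all genes it called 20.4%, 19.2% higher and 1.22% lower. All 7 were among the 7 genes named through the cumulus table. In oocytes 0 of the 18 were called by DESeq2 or under the other settings. Between compartments 14 of the 18 were called, 4 higher and 10 lower in oocytes, where 88.8% of all genes were called, 46.5% higher and 42.3% lower. With library totals alone the split was 7 higher and 7 lower, beside 51.9% and 36.6% of all genes. The genes named next were also picked with their values known. Of the Src family kinases that Eph receptors recruit, SRC was lower in oocytes (log2 difference -3.06, SE 0.23) and FYN higher (2.85, SE 0.13), and YES1 did not pass (-0.13, SE 0.18, edgeR FDR 0.468). GJA1, the gap junction protein connexin 43, was lower in oocytes (log2 difference -4.78, SE 0.25).

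The named genes most like EPHB2 over the 19 cumulus libraries, by Pearson's r of log2(CPM + 1) among 4491 named genes that passed the filter, were PRICKLE1 (r = 0.905), a planar polarity gene, JAG1 (r = 0.882), a Notch ligand, EPAS1 (r = 0.863), a hypoxia-inducible transcription factor, PPM1N (r = 0.829), a protein phosphatase, and FGF9 (r = 0.821), a growth factor. Within the 10 BCB negative complexes these coefficients were 0.545 to 0.864, and within the 9 BCB positive ones 0.132 to 0.699, so that part of the likeness over all libraries lay between the classes. The genes most like EFNA1 over the 19 oocyte libraries were ALDH1A3 (r = 0.805), an enzyme of retinoic acid synthesis, SPHK1 (r = 0.755), a sphingosine kinase, GAS1 (r = 0.734), a hedgehog co-receptor, and the transcription factor genes HLX (r = 0.725) and TAL1 (r = 0.711). For these, r was 0.458 to 0.702 within BCB negative and 0.310 to 0.893 within BCB positive oocytes. The points share library, depth and BCB class, and the named genes were ranked by the study's BCB test, so these coefficients are descriptions.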

How the data were processed

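Single oocytes and their cumulus cells were converted to full-length cDNA from poly(A) RNA, without molecular identifiers, and sequenced as paired reads. Per the labels and methods, the authors aligned reads to ARS-UCD1.2 with HISAT2 2.1.0, dropped duplicate reads and counted the rest on Ensembl genes with featureCounts 1.6.0. The deposited values are raw counts per gene. A strand setting is not given in the sources used here.

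From these counts, genes above 2 CPM in at least 9 libraries of a compartment were kept (12313 in cumulus cells, 12753 in oocytes, 14785 in either, 10281 in both). In cumulus cells EPHB2 was above this minimum in 10 BCB negative and 4 BCB positive libraries. Differences were fitted with edgeR 4.0.16 in R 4.3.3 (TMM, robust quasi-likelihood test, Benjamini-Hochberg over all genes, FDR threshold 0.01). The standard error is the log2 difference over the root of F. DESeq2 1.42.0 served as an alternative. Exact permutation tests compared runs of complexes, and relations were tested with 100000 permutations, or all of them under 10 complexes, two-sided, with Python 3.11.15. On simulated counts with 200 genes changed 4-fold, the fit recovered 94% in cumulus cells, 98% in oocytes and 94.5% between compartments. The simulation left out the differences in TMM factor between libraries, so these shares do not show how reliable the calls on the real counts are.

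Groups came from the labels. The complex number pairs an oocyte with its own cumulus cells, and fits without this pairing were the main ones, with a replicate block as alternative. Gene names were read from supplementary tables that pair identifiers with symbols (4934 symbols). No value was taken from those tables. The members, lists and tests were chosen with earlier results of these data known. Named were both members, the 7 Eph and ephrin genes with an identifier, pathway genes past the FDR threshold, and the 5 genes most like each member. No pathway gene passed that threshold in a BCB comparison in the main edgeR fits, and KALRN, SRC, FYN, YES1, GJA1, INHA, CYP19A1 and KRT18 were named after their values were seen. Gene lengths, coordinates and sequences were not used, so levels were not compared between genes. Theca and leucocyte markers had no known identifier. The 3 endothelium markers summed to 1.39 to 32.6 CPM in cumulus and 106 to 192 CPM in oocyte libraries, and HBA, of erythrocytes, was at 0.265 to 573 CPM and 3.42 to 214 CPM.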

Additional observations from a re-analysis of the deposited data

Results flagged for a closer look

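Of 28 groups of 9 or 10 libraries, 2 held a library far from the others by Dixon's test, where chance flags about 1 in 20 groups. EPHB6 in BCB negative cumulus cells was at 23.9 CPM in complex 86, and the next library was at 9.73 CPM. EPHB6 in BCB positive oocytes was at 13.7 CPM in complex 72, and the next was at 4.35 CPM. The oocyte library of complex 72 also held 2400 CPM of cumulus and granulosa markers, and its own cumulus library held EPHB6 at 55.8 CPM. The part of these transcripts in the EPHB6 value was not tested. No library of EPHB2 or EFNA1 stood apart in this way.

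The BCB difference of EPHB2 in cumulus cells minus that in oocytes was -3.28 on the log2 scale, and it was noted because the fit over all genes put it past the FDR threshold, with 54 of 10281 genes called (0.525%). With complexes as blocks it was -2.94 and not past the threshold, and 2 genes were called. EPHB2 was chosen for its cumulus difference, which this value contains, so it is a description and neither call is evidence for or against a difference.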

How the results depend on the processing

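In all, 234 alternative values were computed for 16 results, and 221 kept their direction where it was called and their side of the threshold or moved by less than the spread. None reversed a call. EFNA1 in oocytes fell from a log2 difference of -0.96 to -0.36 with complexes 65 to 74 alone, and to between -0.47 and -0.25 when a BCB negative complex of that run was also left out. With every complex left out in turn it was -1.06 to -0.88, and EPHB2 in cumulus cells was -3.34 to -2.82. The number of named Eph and ephrin genes called in cumulus cells was 1 (EPHB2, chosen by this difference). It was 3 with the likelihood-ratio test without TMM, which put the median log2 difference of all genes at 0.46 and called 2516 genes. With the log10 library total as a covariate it was 0, and without complexes 65, 66 and 68 it was 0. Each of these last settings called 2 genes in all. Of all genes in cumulus cells, 69 were called, 365 with DESeq2, 164 without a filter, 115 with the run as a covariate, 146 without complexes 6 and 89 and 10 without complexes 66 and 68. The count was 6 to 40 without a complex other than 87, 88, 89 or 90, and 63 to 160 without 1 of these 4. Leaving out these sets, or each complex in turn in the BCB comparisons, was chosen after seeing the data.

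The replicate block by complex took the named genes called for a BCB difference that differed between compartments from 1 to 0, and all genes from 54 to 2, while library totals alone called 578 and no filter 225. Among the named Eph and ephrin genes it changed no other call, while all genes called between compartments went from 13127 to 13058. The difference of EPHB2 between compartments was -0.34 with library totals alone (FDR 0.266) and -0.49 without complexes 6 and 89 (FDR 0.134).

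EPHB2 with EFNA1 in BCB negative complexes was past 0.05 without the 2 farthest complexes (r = -0.892, exact permutation p = 0.00618), against -0.503 with all 10, -0.523 with library totals alone, -0.515 with a pseudocount of 0.25 and -0.160 with the inverse hyperbolic sine. The difference of EPHB2 between complexes 86 to 91 and 65 to 68 lost its unadjusted call with library totals alone (-0.88, exact permutation p = 0.190) and when a complex from 65 to 68 was left out (-1.48 to -1.17). For the other 3 comparisons of runs, leaving out a complex gave 0.43 to 0.59 for EFNA1 in BCB negative oocytes, -0.57 to 0.08 for EPHB2 and -0.26 to 0.23 for EFNA1 in BCB positive complexes. The causes were not tested. Depth limits these values, with 5 to 20 counts of EPHB2 in BCB positive and 2 to 77 of EFNA1 in BCB negative cumulus libraries.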
